A study of Mus musculus with 21 samples.

Results

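The levels of 10 genes that mark pluripotent or early embryonic cells were followed through motor neuron differentiation: *Pou5f1*, *Nanog*, *Zfp42*, *Esrrb*, *Klf4*, *Dppa5a*, *Sall4*, *Lin28a*, *Lin28b* and *Utf1*. They are a list of names set with no threshold on a measured value, though earlier results of these data were known when it was drawn up, and all 10 were found by their Ensembl identifier among the 55400 genes of the count table. All 10 passed the filter on low counts in every fit. The data were RNA-seq of polyA RNA from 21 libraries in 7 groups of 3 biological replicates. Wild-type C57BL/6 mouse embryonic stem cells were grown on mitomycin-C-treated mouse embryonic fibroblasts, the feeder cells, in medium with leukemia inhibitory factor, and formed embryoid bodies from day 0. From day 2 every culture received retinoic acid and the Sonic Hedgehog agonist SAG. DAPT was added to that medium at day 4 to direct the cells to hypaxial motor column neurons. At day 5 it was given in medium without retinoic acid and SAG. The 4 untreated groups were D4 (motor neuron progenitors), D4H8 (8 hours later), D5 (newborn motor neurons) and D6 (maturing motor neurons). The 3 treated groups, D4H8+GSKJ4, D5+GSKJ4 and D6+GSKJ4, had received GSKJ4, an inhibitor of the Kdm6 histone H3K27 demethylases, for the day before collection. The libraries are bulk RNA, in which fewer cells of a type and less RNA per cell cannot be told apart.

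*Pou5f1* (Oct4), *Nanog*, *Esrrb* and *Klf4* encode transcription factors of the network that keeps embryonic stem cells undifferentiated. *Zfp42* (Rex1), *Dppa5a* and *Utf1* are widely used marker genes of that state, and the zinc-finger factor Sall4 works with Oct4 and Nanog. Lin28a and Lin28b are RNA-binding proteins that block the maturation of let-7 microRNAs, and both stay on in early progenitors, the neural tube included, after the core network has been shut down.

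The levels fell into 2 patterns. *Lin28a*, *Lin28b* and *Sall4* followed the stage: each was lower at D6 than at D4 in all 3 replicates, by 1.65 to 1.72 on the log2 scale. *Pou5f1*, *Nanog*, *Zfp42*, *Esrrb*, *Klf4* and *Utf1* varied more with the replicate number than with the stage. None of these 6 passed the test between D4 and D6 in the main fit, with low counts filtered and no replicate block. Some of them passed at other settings, with the first replicates or without. *Dppa5a* showed both features, with a fall of 2.12 on the log2 scale and the lowest level in replicate 1 of every group. In the main fit, which did not pair libraries by replicate number, none of the 10 genes passed the test for GSKJ4 at D4H8, D5 or D6. Some other settings without pairing gave calls at D4H8. These were *Zfp42* and *Esrrb* without the filter on low counts, and *Lin28a* in one fit of all libraries or without D4H8+GSKJ4 replicate 2. Pairing libraries by number gave calls for *Nanog*, *Zfp42*, *Esrrb* and *Klf4* at D4H8, and raised the number of calls over all genes there too. At that stage the libraries of one number did not all deviate together.

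The libraries held 14982115 to 34383842 counts, with a median of 16238435, and the deepest was D4H8 replicate 1. The labelled cell type was borne out by its markers: all 8 motor neuron markers, from *Mnx1* and *Isl1* to *Slc18a3*, rose from D4 to D6, and all 8 proliferation markers fell. One set of libraries stood apart for the pluripotency genes. Replicate 1 was the lowest of the 3 libraries in all 7 groups for *Pou5f1*, *Nanog*, *Zfp42*, *Esrrb*, *Klf4* and *Dppa5a*, and in 6 of 7 groups for *Utf1* and *Sall4*. It was the lowest in 2 groups for *Lin28a* and in 1 for *Lin28b*. At D6, 7 of the 10 genes had a replicate 1 level of at most 0.5 times the mean of replicates 2 and 3, which 7.35% of the 13190 genes with a mean of at least 1 FPKM in replicates 2 and 3 also had. FPKM is the read count scaled by exonic length and by library total. At D4H8 it was 7 of the 10 genes against 4.05% of genes, and in D4H8+GSKJ4 it was 3 of the 10 against 3.97%. Apart from that, D5+GSKJ4 replicate 2 listed 39381 genes at 0, where no other library exceeded 32805. The labels give no shared batch for libraries of one number, so the results of the 10 genes are given with all libraries and, where that changes a call, without the first replicates. For the gene lists, the counts from D4 to D6 and the marker counts with GSKJ4 at D4H8 are given both ways.

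**Figure D1:**
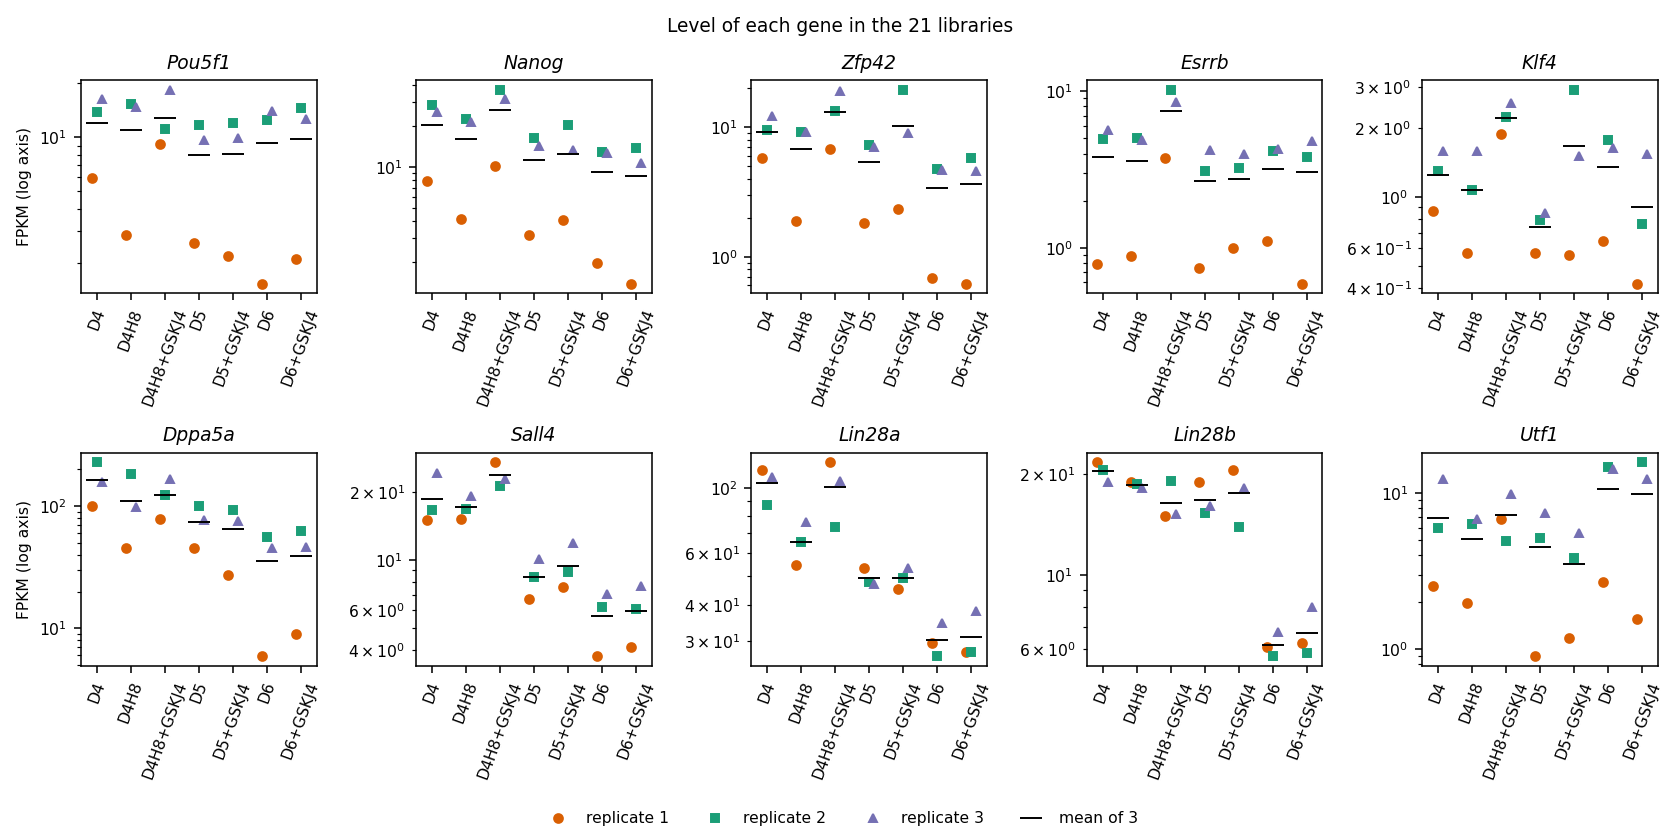
FPKM of each gene (vertical log axis) in the 7 groups, with a circle, square and triangle for replicates 1, 2 and 3 and a bar for their mean. The replicate 1 circles lie below both other libraries in every group for *Pou5f1*, *Nanog*, *Zfp42*, *Esrrb*, *Klf4* and *Dppa5a*, whereas the *Lin28a* and *Lin28b* symbols lie together and step down by D6.

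Promoter sequences are shown for *Nanog*, *Zfp42*, *Pou5f1* and *Lin28a* because these 4 held at least 1 match to the octamer, Sox or nuclear receptor motifs described below. The sequences are the 250 bases before the RefSeq start site in build GRCm38.p6, 5′ to 3′ on the gene's strand, and 8 of the 10 genes matched the promoter table (*Dppa5a* and *Sall4* did not). The windows of *Esrrb*, *Klf4* and *Utf1* nearest to their annotated starts held none of these motifs. A GC box (GGGCGG), found in 32.7% of all windows searched, was looked for too and is not marked. It was in the windows of *Klf4*, *Utf1*, *Pou5f1* and *Zfp42*. The one *Lin28b* window, which held no octamer, Sox or nuclear receptor motif either, belongs to a RefSeq start 16194 bases inside the annotated gene. Capitals mark every match, on either strand, to the octamer of POU factors such as Oct4 (ATGCAAA), the core of the Sox motif (CATTGT) and the nuclear receptor half-site read by factors such as Esrrb (AGGTCA).
Nanog, chr6:122707239-122707488, plus strand: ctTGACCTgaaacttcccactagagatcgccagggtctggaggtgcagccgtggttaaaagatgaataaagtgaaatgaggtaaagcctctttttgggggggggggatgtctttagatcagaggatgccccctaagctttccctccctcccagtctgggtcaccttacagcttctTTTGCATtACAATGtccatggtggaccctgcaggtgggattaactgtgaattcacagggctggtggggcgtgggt
Zfp42, chr8:43307010-43307259, minus strand: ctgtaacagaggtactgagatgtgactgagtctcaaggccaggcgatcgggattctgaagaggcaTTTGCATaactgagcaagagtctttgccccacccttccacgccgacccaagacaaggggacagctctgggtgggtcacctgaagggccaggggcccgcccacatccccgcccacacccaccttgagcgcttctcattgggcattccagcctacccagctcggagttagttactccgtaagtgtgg
Pou5f1, chr17:35505782-35506031, plus strand: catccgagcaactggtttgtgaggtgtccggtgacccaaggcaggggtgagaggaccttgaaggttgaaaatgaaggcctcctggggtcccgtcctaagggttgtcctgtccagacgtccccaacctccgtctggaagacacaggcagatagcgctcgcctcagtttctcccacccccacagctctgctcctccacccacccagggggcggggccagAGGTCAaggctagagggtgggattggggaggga
Lin28a, chr4:134018817-134019066, minus strand: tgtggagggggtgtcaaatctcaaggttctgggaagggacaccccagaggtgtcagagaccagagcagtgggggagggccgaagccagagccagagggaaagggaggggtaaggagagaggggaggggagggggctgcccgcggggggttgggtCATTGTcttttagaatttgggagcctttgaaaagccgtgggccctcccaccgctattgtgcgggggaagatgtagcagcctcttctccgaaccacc
The *Nanog* window held an octamer whose first base lay at -75 and a Sox core at -67, with 1 base between them. That arrangement (the reverse strand of the octamer, any 1 base, then the reverse strand of the Sox core) occurred in 2 of 32851 promoter windows, 0.0061%, and both were windows of *Nanog*. The octamer alone was in 4.12% of windows and stood at -185 in *Zfp42*. The Sox core was in 10.7% of windows and stood at -96 in *Lin28a* with no octamer. The half-site was in 14.0% of windows and stood at -33 in *Pou5f1* and at -248 in *Nanog*. The matches are descriptions of letters, and no binding was measured here.

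*Pou5f1* (ENSMUSG00000024406, chromosome 17, 35506018 to 35510772, plus strand, GRCm38) encodes Oct4, the factor that pluripotent cells cannot do without. Its level in replicates 1, 2 and 3 was 5.97, 13.9 and 16.4 FPKM at D4, 2.87, 15.4 and 14.7 at D4H8, 2.57, 11.7 and 9.68 at D5, and 1.53, 12.5 and 14.0 at D6. Replicates 2 and 3 therefore stayed between 9.68 and 16.4 FPKM throughout, while replicate 1 went from 5.97 to 1.53. The change from D4 to D6 was -0.30 ± 0.70 (log2 fold change ± SE, n = 3 and 3), with an edgeR adjusted p of 0.723. With the first replicates left out it was -0.10 ± 0.15 (adjusted p = 0.584). At that setting *Pou5f1* passed for one step, a fall of 0.47 on the log2 scale from D4H8 to D5 (adjusted p = 0.0294).

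*Nanog* (ENSMUSG00000012396, chromosome 6, 122707489 to 122714633, plus strand) encodes a homeodomain factor of the core network. It stood at 7.85, 28.2 and 25.1 FPKM at D4, 4.19, 22.4 and 21.4 at D4H8, 3.18, 16.3 and 14.2 at D5, and 1.99, 12.9 and 12.6 at D6. Within each replicate number the D6 value was below the D4 value, but replicate 1 at D4 lay below replicates 2 and 3 at D6, so the groups overlapped. The change from D4 to D6 was -1.07 ± 0.71, with an edgeR adjusted p of 0.20. Without the first replicates the fall was 0.97 on the log2 scale and passed the test (adjusted p = 2.35e-05), as 29% of genes did in that direction and at that setting.

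*Zfp42* (ENSMUSG00000051176, chromosome 8, 43295063 to 43306980, minus strand) encodes Rex1, a zinc-finger protein whose loss marks the exit from the naive state. It was at 5.80, 9.55 and 12.3 FPKM at D4 and at 0.68, 4.74 and 4.68 at D6, so no D6 library reached the lowest one of D4. The change was -1.38 ± 0.65 (edgeR adjusted p = 0.0776), which became 0.0413 without D4H8 replicate 1, and without the first replicates it was -1.11 ± 0.18 (adjusted p = 9.70e-05). With all libraries the step from D5 to D6 was -0.57 ± 0.65 (adjusted p = 0.535), and without the first replicates it passed, at -0.51 ± 0.18 (adjusted p = 0.0457).

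*Esrrb* (ENSMUSG00000021255, chromosome 12, 86361117 to 86521628, plus strand), an orphan nuclear receptor of the naive network, split by replicate number. It was at 0.79, 4.92 and 5.64 FPKM at D4 and at 1.11, 4.14 and 4.28 at D6. The 3 untreated libraries of replicate 1 after D4 stayed between 0.74 and 1.11 FPKM, and those of replicates 2 and 3 between 3.09 and 5.00. The change from D4 to D6 was -0.15 ± 0.73 (edgeR adjusted p = 0.867) and -0.23 ± 0.16 without the first replicates (adjusted p = 0.23).

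*Klf4* and *Utf1* had their lowest untreated means at D5 and higher ones at D6. *Klf4* (ENSMUSG00000003032, chromosome 4, 55527143 to 55532466, minus strand), a Krüppel-like factor used in reprogramming, had the lowest mean FPKM of the 10 in every group, at 0.57, 0.79 and 0.85 FPKM at D5 and 0.64, 1.77 and 1.63 at D6. *Utf1* (ENSMUSG00000047751, chromosome 7, 139943789 to 139945112, plus strand), a chromatin-associated factor, was at 0.90, 5.14 and 7.44 FPKM at D5 and 2.70, 14.7 and 14.2 at D6. In both genes replicate 1 at D6 lay below replicates 2 and 3 at D5, so the groups overlapped. The changes from D5 to D6 were 0.97 ± 0.41 for *Klf4* (edgeR adjusted p = 0.0806) and 1.33 ± 0.72 for *Utf1* (adjusted p = 0.169). With the replicate number as a block, which the check of pairing allowed for this step, both rose: *Klf4* by 0.91 (adjusted p = 0.0212) and *Utf1* by 1.39 on the log2 scale (adjusted p = 0.00174). That block was fitted over all untreated libraries, D4 included, for which the check did not allow it. *Klf4* and *Utf1* rose without the first replicates too, by 1.14 and 1.30 (adjusted p = 0.00930 and 0.00262).

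*Dppa5a* (ENSMUSG00000060461, chromosome 9, 78367052 to 78368177, minus strand), a KH-domain RNA-binding protein of pluripotent cells, fell from 100.2, 228 and 158 FPKM at D4 to 5.94, 56.2 and 45.4 at D6. The groups did not overlap, and the widest gap among the D6 libraries was that of replicate 1. The change was -2.12 ± 0.60 (edgeR adjusted p = 0.00724), and without the first replicates -1.84 ± 0.26 (adjusted p = 2.73e-05). The step from D5 to D6 was -0.95 ± 0.59 (adjusted p = 0.236), and with the replicate block -1.18 (adjusted p = 0.0137). A transcript of each of 10 other annotated genes matches at least 90% over at least 30% of the *Dppa5a* transcript, and 8 of these genes are pseudogenes. *Pigp*, a protein-coding gene among them, held 10436 of their 10575 counts, beside 19284 of *Dppa5a*. The match was by transcript, so how many *Pigp* counts fall in the matching stretch is not known. The *Dppa5a* counts are uncertain to the extent that reads were shared.

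*Sall4* (ENSMUSG00000027547, chromosome 2, 168748332 to 168767943, minus strand), a zinc-finger factor, fell between D4H8 and D5. It was at 15.01, 16.7 and 24.4 FPKM at D4, 15.2, 16.9 and 19.2 at D4H8, 6.73, 8.45 and 10.2 at D5, and 3.76, 6.17 and 7.07 at D6. The D4 and D4H8 libraries overlapped, and all D5 libraries lay below both. The fall from D4H8 to D5 was 1.01 on the log2 scale (SE 0.20, edgeR adjusted p = 0.00203) and 0.94 without the first replicates (adjusted p = 3.96e-04). The step from D5 to D6 was -0.47 ± 0.21 (adjusted p = 0.0941), and with the replicate block -0.48 (adjusted p = 0.0126). Over the whole course *Sall4* fell by 1.65 (SE 0.21, adjusted p = 9.24e-06).

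*Lin28a* (ENSMUSG00000050966, chromosome 4, 134003330 to 134018841, minus strand) had a lower mean at each successive stage. It was at 115, 87.4 and 108 FPKM at D4, 54.7, 65.1 and 76.3 at D4H8, 53.1, 47.6 and 46.9 at D5, and 29.5, 26.8 and 34.7 at D6. No 2 neighbouring stages overlapped. The fall in the first 8 hours was 0.73 on the log2 scale (SE 0.16, edgeR adjusted p = 0.0160). That call was lost without the first replicates (-0.49 ± 0.14, adjusted p = 0.0812), without D4 replicate 1 alone (-0.56, adjusted p = 0.0842), without D4H8 replicate 1 alone (-0.64, adjusted p = 0.108) and without D4H8 replicate 2 alone (-0.72, adjusted p = 0.0626). The step from D4H8 to D5 was -0.40 ± 0.16 (adjusted p = 0.0756), and passed without the first replicates (-0.56, adjusted p = 0.00664). From D5 to D6 it fell by 0.59 (adjusted p = 0.0110), a call that leaving out D6 replicate 2 moved to an adjusted p of 0.0551. The net fall from D4 to D6 was 1.72 on the log2 scale (SE 0.16, adjusted p = 5.93e-07).

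*Lin28b* (ENSMUSG00000063804, chromosome 10, 45376620 to 45486395, minus strand), the paralog of *Lin28a*, made most of its fall in one step. It was at 21.7, 20.5 and 18.9 FPKM at D4, 18.9, 18.7 and 18.1 at D4H8, 18.9, 15.3 and 16.0 at D5, and 6.07, 5.72 and 6.73 at D6. The lowest D4 library (18.88) lay just above the highest D4H8 library (18.87). The steps to D4H8 and to D5 were -0.19 ± 0.13 and -0.14 ± 0.13 (edgeR adjusted p = 0.496 and 0.472). From D5 to D6 it fell by 1.33 on the log2 scale (SE 0.14, adjusted p = 1.08e-05), and from D4 to D6 by 1.66 (SE 0.14, adjusted p = 1.52e-07). Both calls were made at every alternative setting run.

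The ratio of the 2 paralogs within a library was taken on the FPKM scale, which is per length. *Lin28a* stood at 5.32, 4.26 and 5.75 times *Lin28b* at D4, 2.90, 3.49 and 4.21 at D4H8, 2.81, 3.12 and 2.93 at D5, and 4.86, 4.68 and 5.15 at D6. All 3 D4H8 ratios were below the D4 ratios and all 3 D6 ratios above the D5 ratios. A two-sided exact permutation test of the log2 ratio gave p = 0.1 for each of these steps, the smallest value that 3 against 3 allows, and p = 0.3 for D4H8 to D5. The test therefore could not reach 0.05.

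Over the 4 untreated contrasts, 1 of the 10 genes was called for D4 to D4H8 (*Lin28a*, lower), 1 for D4H8 to D5 (*Sall4*, lower), 2 for D5 to D6 (*Lin28a* and *Lin28b*, lower) and 4 for D4 to D6 (*Dppa5a*, *Sall4*, *Lin28a* and *Lin28b*, lower). The share of the 17519 tested genes called lower was 0.32%, 10.5%, 15.1% and 31% in the same order, so the 4 of 10 at D6 stood near the background. Of the 10 genes, 6 had a log2 fold change below 0 in every one of the 3 steps, against 23.6% of tested genes. The median of the 10 from D4 to D6 was -1.23, beside -0.04 over all tested genes. Upper-quartile scaling moved the latter to -0.19, and the 4 calls were also made at that scaling. In FPKM, 5 of the 10 had groups that did not overlap, with D6 lower, against 35.6% of tested genes. With the replicate block, which the pairing allowed for D5 to D6, 6 of the 10 were called in that step. *Dppa5a*, *Sall4*, *Lin28a* and *Lin28b* fell, beside 17.2% of genes, and *Klf4* and *Utf1* rose, beside 20.8%. Leaving out the first replicates gave 4 lower from D4H8 to D5 (*Pou5f1*, *Nanog*, *Sall4* and *Lin28a*), beside 11% of genes. It gave 3 lower and 2 higher from D5 to D6, beside 14.9% and 18%. At that setting 7 of the 10 were called from D4 to D6, 6 lower and *Utf1* higher (0.77 ± 0.27, adjusted p = 0.0251), where 29% of genes were called lower and 31.3% higher.

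**Figure D2:**
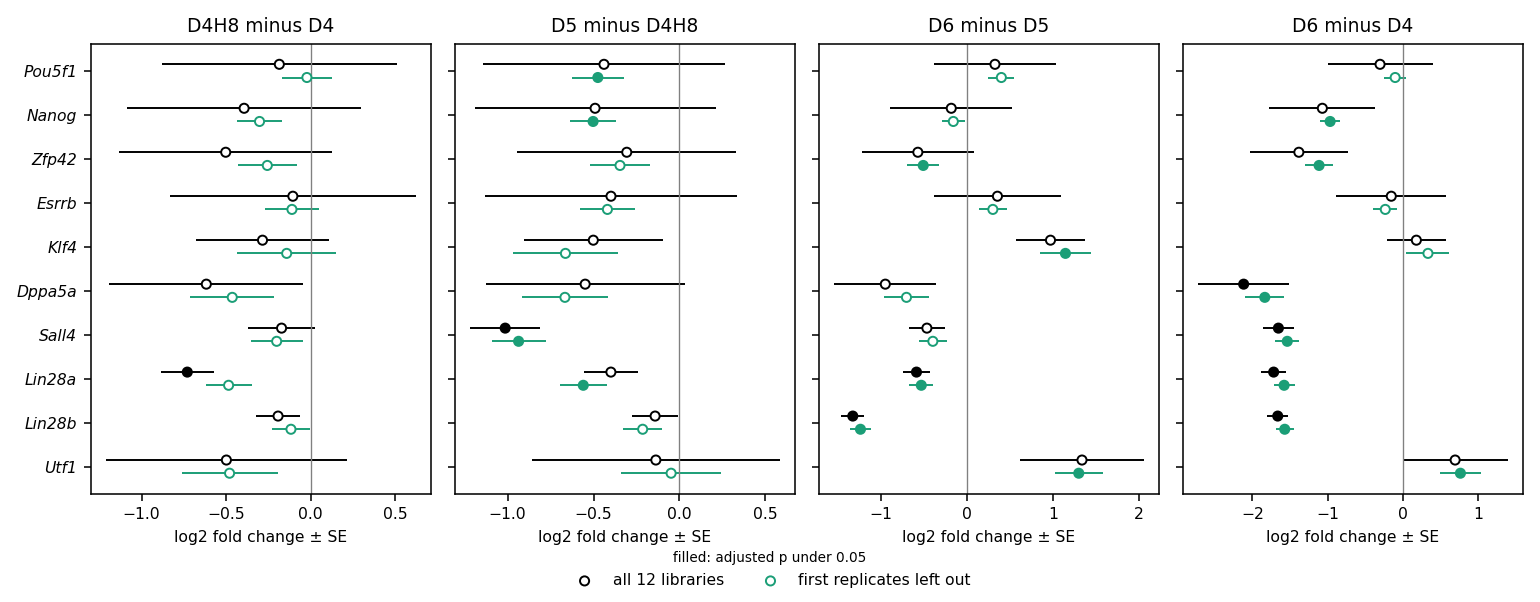
Log2 fold change with its SE (horizontal axis) of the 10 genes for each untreated contrast, with all 12 libraries in black and without the first replicates in green; filled symbols have an adjusted p under 0.05. The SE of *Pou5f1* from D4 to D6 narrows from 0.70 to 0.15 when the first replicates are left out, while that of *Lin28b* is 0.14 and 0.12.

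The share of the variation over the 12 untreated libraries that went with the stage and with the replicate number was worked out from the sums of squares of log2 CPM, counts scaled by library size, as a description. The replicate number took 95.1% for *Esrrb*, 82.8% for *Pou5f1*, 78.1% for *Nanog*, 73.1% for *Utf1*, 58.9% for *Zfp42* and 51.9% for *Klf4*. The stage took 96.3% for *Lin28b*, 94.1% for *Lin28a*, 90.6% for *Sall4* and 55.4% for *Dppa5a*. The medians over all tested genes were 73.0% for stage and 5.92% for replicate number. The replicate share was above the stage share for 6 of the 10 genes and for 10.3% of tested genes.

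**Figure D3:**
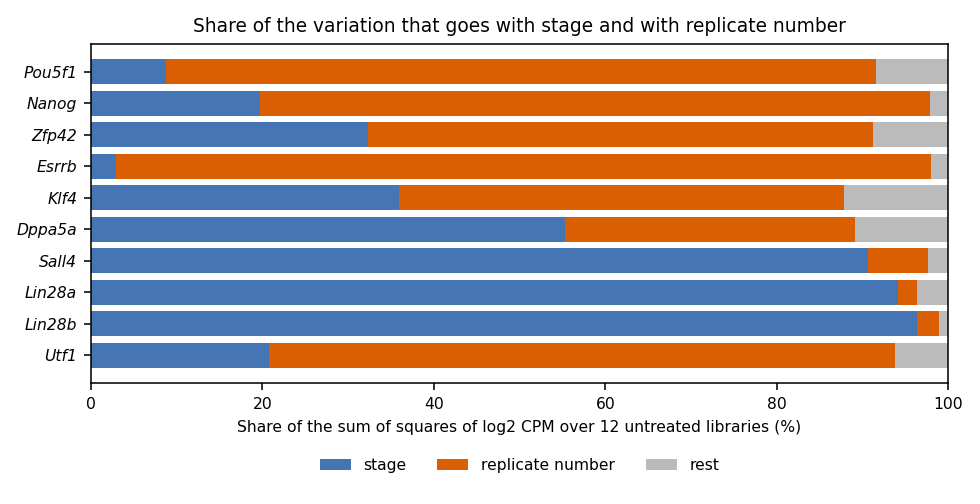
Share (%) of the sum of squares of log2 CPM over the 12 untreated libraries that goes with stage (blue), replicate number (orange) and neither (grey), for each gene. The orange part is largest for *Esrrb* (95.1%) and the blue part for *Lin28b* (96.3%).

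Other gene lists moved with the replicate number too. The summed FPKM of 9 germ cell genes in replicate 1 was 0.374 to 0.545 times the mean of replicates 2 and 3 over the 7 groups, and that of 12 shared pluripotency genes 0.465 to 0.784 times. For the 8 proliferation genes the ratio was 1.01 at D4 and 0.992 at D4H8, then 0.655 at D5 and 0.448 at D6. For the 8 motor neuron genes it was 0.434 at D4 and 1.02, 0.927 and 1.05 at D4H8, D5 and D6. The summed FPKM of the 8 neural progenitor genes in replicate 1 was above the mean of replicates 2 and 3 in every group but D4. The ratio was 0.792 at D4, 1.62 at D4H8, 2.03 in D4H8+GSKJ4 and 1.12 to 1.31 in the later groups. At D6 that sum was mostly *Vim* and *Nkx6-1*, with means of 146 and 143 FPKM. Both rose from D4 to D6, whereas *Sox1*, *Pax6*, *Olig2* and *Hes5* fell. The summed ratio does not show the ratio of each gene. The 9 feeder fibroblast markers summed to between 6.77 and 31.6 FPKM, with a ratio between 0.408 and 1.47, and *Twist2* was at no more than 3 counts in each library of D4H8+GSKJ4 and of D5+GSKJ4. The part of these cell types in the pluripotency gene levels was not tested.

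**Figure D4:**
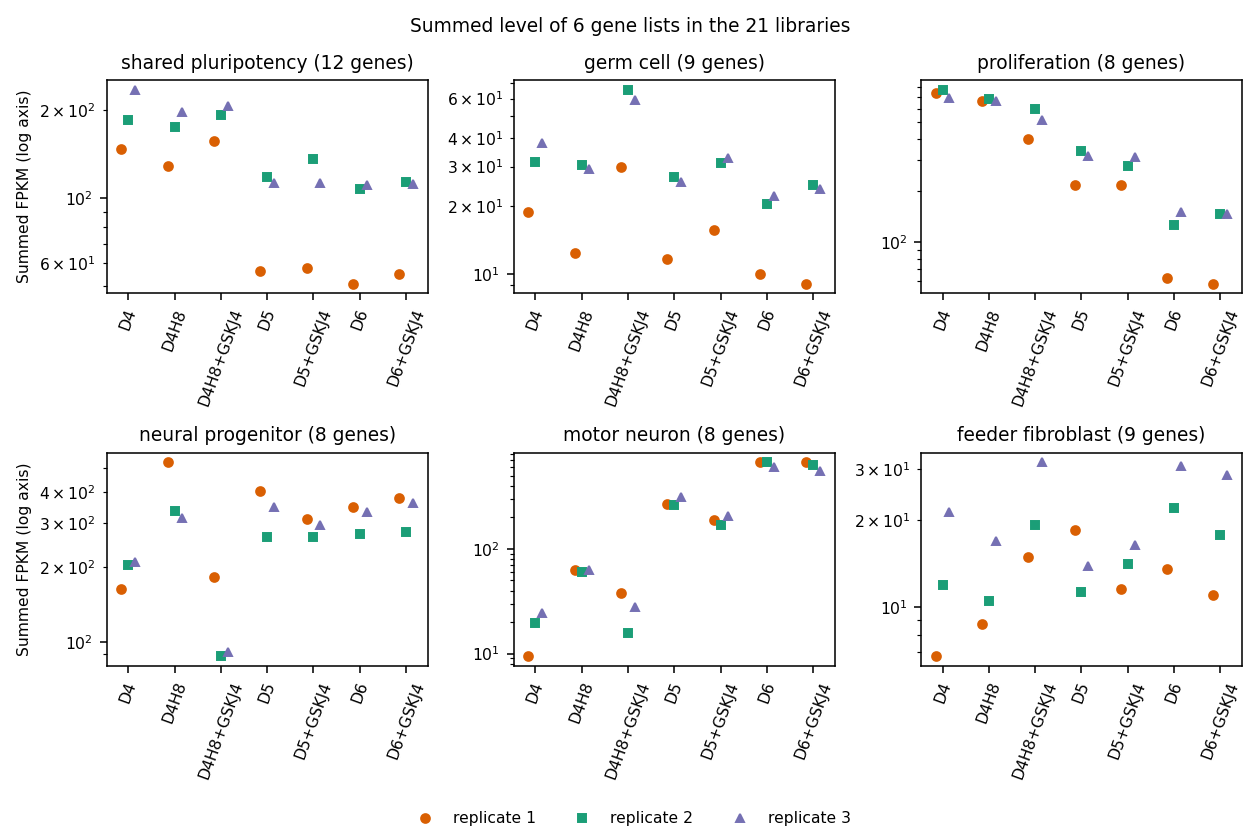
Summed FPKM (vertical log axis) of 6 gene lists in the 7 groups, with a circle, square and triangle for replicates 1, 2 and 3. Replicate 1 is the lowest library of every group for the shared pluripotency and germ cell genes, and of the D5 and D6 groups, treated or not, for the proliferation genes.

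Across the 21 libraries, which share stages and treatments and are not independent points, the log2 CPM of *Nanog* and *Zfp42* had a Pearson r of 0.95 (Spearman rho 0.91) and *Nanog* and *Pou5f1* 0.92 (0.82). *Lin28a* and *Sall4* had 0.91 (0.91). Over the 14 libraries of replicates 2 and 3, *Nanog* and *Pou5f1* had a Pearson r of 0.38, *Nanog* and *Zfp42* 0.79, *Nanog* and *Sall4* 0.85, and *Lin28a* and *Sall4* 0.96. *Utf1* had a Pearson r of -0.75 to *Lin28b* and -0.41 to *Nanog* over those 14. Among 10999 candidate genes, the 3 most like *Nanog* over 21 libraries were *Fbxo15* (r = 0.98), *Zfp42* (0.95) and *Sohlh2* (0.95). Among those most like *Pou5f1* were *Tfap2c* and *Nanog* (each 0.92), and among those most like *Esrrb* were *Tfap2c* (0.95) and *Nr5a2* (0.91). *Zfp42* was closest to *Dppa4*, *Phf11d* and *Naa11* (0.96 to 0.98) and *Dppa5a* to *Calcoco2*, *Dppa4* and *Syce2* (0.94 to 0.96). *Sall4* was closest to *Dnmt3b*, *Trim71* and *Tbc1d1* (each 0.98), *Lin28a* to *Epb41l2*, *Wdr86* and *Utp18* (0.95 to 0.96), and *Lin28b* to *Smim15*, *Pex2* and *Car3* (0.95 to 0.96). For *Utf1* the 3 were *Etv5*, *Mmp2* and *Pou5f1* (0.84 to 0.87), and for *Klf4* *Pramef12*, *Atp2a3* and *Sh3d19* (0.83 to 0.85).

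The wider pluripotency genes were counted in lists that leave out the 10, except that *Sall4* is in the Sall family list. From D4 to D6, 32.9% of all tested genes rose and 31% fell. Of 12 naive pluripotency genes tested from D4 to D6, 2 rose and 1 fell. *Zfp57*, which protects imprinted methylation and is also made in neural tissue, rose from 11.2 ± 2.13 to 54.4 ± 4.89 FPKM (SD, n = 3), a log2 fold change of 2.36 ± 0.14 (edgeR adjusted p = 6.11e-09). *Tbx3*, a T-box factor, rose from 0.773 ± 0.376 to 5.72 ± 1.9 FPKM (adjusted p = 3.57e-05), and *Dppa3* was the one that fell. *Tfcp2l1* was at 2.94 ± 1.55 FPKM at D4 and 1.34 ± 0.891 at D6 (adjusted p = 0.133). The list's median log2 fold change was -0.21. Without the first replicates 3 rose (*Klf5* as well) and 3 fell (*Tfcp2l1* and *Nr5a2* as well), and the call of *Dppa3* was lost without D4 replicate 2 or D6 replicate 1.

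Of 12 shared pluripotency genes, 5 fell from D4 to D6 and 1 rose, with a median of -1.12. *Sox2*, the partner of Oct4 that neural progenitors also use, fell from 66.1 ± 18.3 to 17.9 ± 8.37 FPKM (edgeR adjusted p = 2.62e-04). *Mybl2*, a cell cycle transcription factor, fell from 21.5 ± 4.84 to 5.78 ± 3.57 (adjusted p = 0.00129), and *Rif1*, a replication timing factor, from 28.6 ± 1.74 to 8.91 ± 2.47 (adjusted p = 4.26e-06). *Dppa4* and *Trim71* fell too, and *Sall1* rose. Leaving out the first replicates, 7 of the 12 fell and 2 rose, and the call of *Dppa4* was lost without D4 replicate 2, D4 replicate 3 or D6 replicate 1. Of 11 formative and primed genes tested, 4 fell and 4 rose, with a median of -0.65. *Sox3* fell by 3.58 on the log2 scale, *Dnmt3b*, a de novo DNA methyltransferase, by 2.47 and *Cdh1*, E-cadherin, by 1.87 (adjusted p = 4.16e-07, 2.73e-06 and 0.00147). The 4 that rose were *Fgf5*, *Pou3f1*, *Foxd3* and *Etv4*, and *Otx2*, the untested one, was at no more than 0.25 FPKM in any library. When the first replicates were left out 5 fell and 5 rose, and the call of *Fgf5* was lost without D4 replicate 2 or 3 or D6 replicate 1 or 2.

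The genes around *Lin28* split evenly, with 6 of 14 higher and 6 lower at D6 than at D4 and a median of -0.04. *Prtg* (protogenin), a surface receptor of the early neural tube and a let-7 target, fell from 63.7 ± 8.25 to 6.48 ± 1.71 FPKM, by 3.24 on the log2 scale (edgeR adjusted p = 1.52e-09). The let-7 target *Hmga2* fell from 24.0 ± 2.25 to 7.77 ± 2.73 (adjusted p = 3.58e-04), and *Igf2bp1*, an mRNA-binding protein, from 43.8 ± 12.7 to 19.1 ± 3.07 (adjusted p = 4.73e-05). *Trim71*, *Mycn* and *Tut4* were the other 3 that fell. The 6 that rose were *Igf2bp2*, *Arid3b*, *Myc*, *Tut7*, *Dis3l2* and *Dicer1*. The 6 that fell did so without the first replicates too, and 4 then rose, *Arid3b* and *Dicer1* no longer among them.

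All 4 Sall genes fell from D4H8 to D5, where 10.5% of tested genes fell. *Sall3* and *Sall4* also fell without the first replicates, while the calls of *Sall1* (-0.74, edgeR adjusted p = 0.0346) and *Sall2* (-0.46, adjusted p = 0.0310) were lost there and without replicate 1 of D4H8 or of D5 alone. From D5 to D6 *Sall1* and *Sall2* rose, *Sall2* not without D6 replicate 1, and *Sall3* changed by 0.14 on the log2 scale (adjusted p = 0.781). At D6 *Sall1* stood at 28.5 ± 1.81 FPKM, above its 17.1 ± 5.46 at D4 (log2 fold change 0.82 ± 0.24, edgeR adjusted p = 0.00855), and *Sall2* at 19.1 ± 1.62 beside 19.9 ± 1.11 (adjusted p = 0.952). *Sall3* was rare and fell from 0.737 ± 0.270 to 0.367 ± 0.147 FPKM (adjusted p = 0.0257), a call lost without D4 replicate 3 or D6 replicate 3. Of 9 germ cell genes, 3 fell from D4 to D6 (*Dnd1*, *Kit* and *Mael*), with a median of -0.78. With the first replicates left out 6 of the 9 fell (*Ddx4*, *Prdm1* and *Sycp3* as well), and on leaving out a single library 0 to 5 did, with none left without D4 replicate 2 or D6 replicate 1. *Kit*, a growth factor receptor also made outside the germ line, fell from 6.04 ± 2.49 to 3.31 ± 0.964 FPKM (adjusted p = 0.0264), a call lost without D4 replicate 2 or 3 or D6 replicate 1. *Dazl* was at 4.53 ± 1.33 and 3.78 ± 1.76 FPKM (adjusted p = 0.791), *Prdm1* at 1.04 ± 0.323 and 0.417 ± 0.286 (0.0519) and *Sycp3* at 1.83 ± 1.34 and 0.677 ± 0.182 (0.103).

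GSKJ4 was compared with untreated cells of the same stage to see how the genes stood when Kdm6 activity was inhibited. At D4H8, 9 of the 10 genes had a log2 fold change above 0, with a median of 0.53 beside 0.02 over all 16269 genes tested, but none passed the test. The test called 3.96% of all genes at this stage, 644 in number, which became 43, 50 or 47 without untreated D4H8 replicate 1, 2 or 3 and 1746 without D4H8+GSKJ4 replicate 2. *Esrrb* was at 3.77, 10.2 and 8.57 FPKM with GSKJ4 and 0.89, 5.00 and 4.89 without, a change of 1.08 ± 0.58 (edgeR adjusted p = 0.280). *Klf4* was at 1.87, 2.22 and 2.55 with and 0.57, 1.07 and 1.58 without (1.04 ± 0.39, adjusted p = 0.136). *Klf4* and *Sall4* were the 2 genes whose treated libraries all lay above all untreated ones, as 18.4% of genes did. With the replicate number as a block, *Nanog*, *Zfp42*, *Esrrb* and *Klf4* were called. The check of pairing did not allow that block at D4H8 (correlations of 0.46, 0.075 and 0.28, where each had to be over 0.1). That block raised the count over all genes too, which is given under the dependence on processing.

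For *Zfp42* and *Nanog* the treated and untreated libraries at D4H8 overlapped. *Zfp42* was at 6.77, 13.3 and 19.0 FPKM with GSKJ4 and 1.9, 9.22 and 9.19 without (0.94 ± 0.55, edgeR adjusted p = 0.316). *Nanog* was at 10.1, 36.6 and 31.3 with and 4.19, 22.4 and 21.4 without (0.71 ± 0.60, adjusted p = 0.488). *Sall4* was at 27.1, 21.3 and 22.8 FPKM with GSKJ4 and 15.2, 16.9 and 19.2 without (0.44 ± 0.17, adjusted p = 0.148). *Lin28a* was at 122, 73.5 and 105 with and 54.7, 65.1 and 76.3 without (0.57 ± 0.20, adjusted p = 0.124), and its treated libraries overlapped those of untreated D4. Without D4H8+GSKJ4 replicate 2 *Lin28a* passed, at 0.71 (adjusted p = 0.0336). The others were *Pou5f1* at 0.21 ± 0.52, *Dppa5a* at 0.14 ± 0.44, *Utf1* at 0.49 ± 0.44 and *Lin28b* at -0.20 ± 0.19 (adjusted p = 0.837, 0.872, 0.522 and 0.542). Without the first replicates none passed either, and the median of the 10 was 0.30.

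The group D4H8+GSKJ4 had the highest mean of all 7 groups for *Pou5f1*, *Nanog*, *Zfp42*, *Esrrb*, *Klf4* and *Sall4*, though in each of the 6 its libraries overlapped those of the next group. Among the 7 ordered means, neighbours stood apart only between D4H8 and D5+GSKJ4 for *Sall4*, and between D4H8 and D5+GSKJ4 and between D5 and D6+GSKJ4 for *Lin28a*. For *Lin28b* they stood apart between D4 and D4H8 and between D4H8+GSKJ4 and D6+GSKJ4. In the D4H8+GSKJ4 libraries the 8 neural progenitor markers summed to 88.0 to 182 FPKM, against 316.5 to 528 in untreated D4H8, and the 8 motor neuron markers to 15.8 to 37.7 against 60.6 to 63.4. Of these, 4 of 8 neural progenitor and 3 of 7 tested motor neuron markers fell with GSKJ4. These were 2 and 1 without the first replicates, and without any 1 of the untreated libraries 1 and 1 (*Olig2* and *Isl1*). They were 5 and 5 without treated replicate 1, 5 and 2 without treated replicate 2, and 3 and 2 without treated replicate 3. The 8 proliferation genes summed to 400, 598 and 518 FPKM with GSKJ4 and 668, 679 and 667 without, and the groups did not overlap. Only *Pcna* of the 8 was called (94.7 beside 176 FPKM, edgeR adjusted p = 0.0331), and 0 were without the first replicates. *Bub1* alone had a log2 fold change above 0 (0.016 ± 0.29). The 9 germ cell genes summed to 29.9, 65.5 and 58.9 FPKM with and 12.4, 30.3 and 29.3 without, so the lowest treated library lay among the untreated ones. The part of that shift in the pluripotency gene levels was not tested.

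At D5 and D6 the GSKJ4 contrasts held no called gene among the 10. The fold changes at D5 ran from -0.40 ± 0.72 (*Utf1*) to 1.11 ± 0.60 (*Klf4*) on the log2 scale, each with an edgeR adjusted p of 0.976, and the median was 0.0020. *Klf4* was at 0.56, 2.92 and 1.51 FPKM with GSKJ4, and without D5+GSKJ4 replicate 2, the library with most genes at 0, its change was 0.44. Over all genes edgeR called 1 of 16309 at D5, or 0.00613%, 767 at an unadjusted p under 0.05, and DESeq2 called 69. At D6 the fold changes ran from -0.58 ± 0.52 (*Klf4*) to 0.13 ± 0.83 (*Dppa5a*), with a median of 0.04, and all 10 genes had overlapping groups. Over all 16301 genes edgeR called 0 at D6, 222 at an unadjusted p under 0.05, and DESeq2 called 1. With the replicate block, which the check of pairing allowed at D6, 257 genes (1.58%) were called, none of the 10 among them. The difference of the GSKJ4 effect between stages was tested directly and passed for none of the 10. The smallest adjusted p were 0.322 for *Lin28a* (-0.54 ± 0.24) and 0.350 for *Klf4* (-1.61 ± 0.75), both for D6 against D4H8, where edgeR called 133 genes (0.735%). It called 0.249% of genes for D5 against D4H8. For D6 against D5 it called 0 genes, and 358 at an unadjusted p under 0.05.

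**Figure D5:**
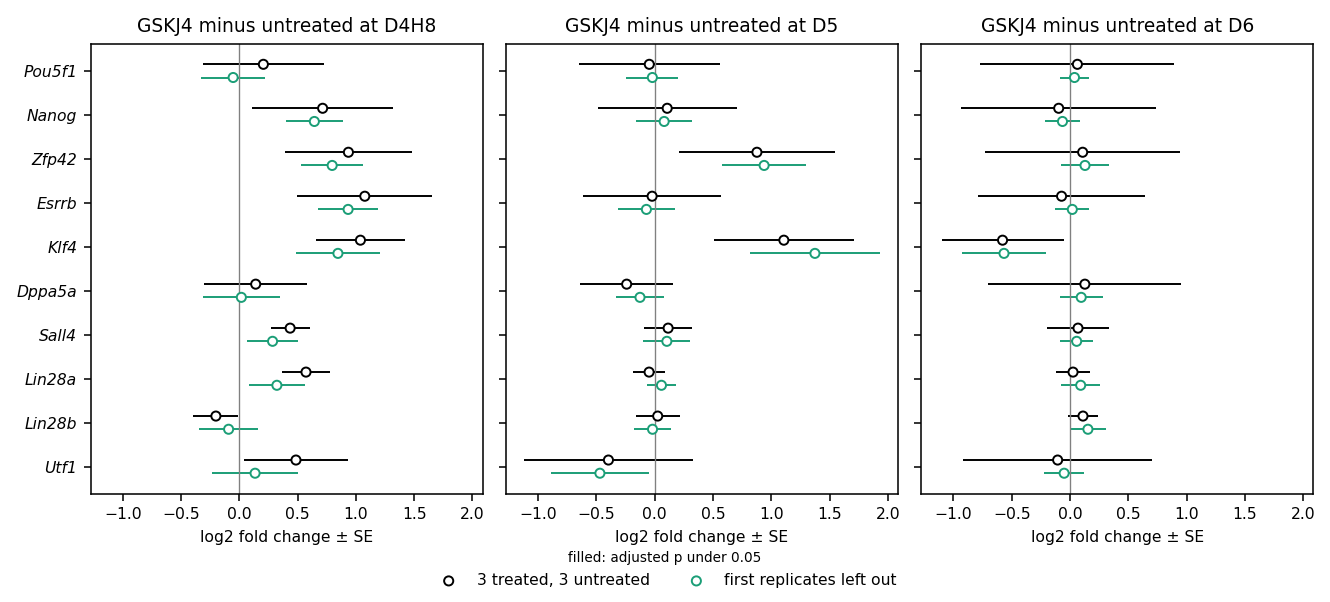
Log2 fold change with its SE (horizontal axis) of the 10 genes for GSKJ4 minus untreated at each stage, with all 6 libraries in black and without the first replicates in green; open symbols have an adjusted p of 0.05 or more. No symbol is filled, and 9 of 10 black symbols lie right of 0 at D4H8.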

How the data were processed

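RNA-seq was available for 21 libraries. The authors aligned the reads with HISAT2 to mm10 and counted them per gene with HTSeq, per the submitters' processing notes and the study's methods, and whether strand was used is not given in the sources used here. The deposited table holds raw counts of 55400 genes and the FPKM that the authors computed from counts and gene lengths, which were recomputed within 0.005. Counts were tested with edgeR 4.0.16 (quasi-likelihood, TMM scaling, filterByExpr with a minimum count of 10, Benjamini-Hochberg over all genes tested, calls at an adjusted p under 0.05). The 4 stages shared one fit of 12 libraries, GSKJ4 was fitted on 6 libraries per stage, and its difference between stages on 18. SE is the log2 fold change over the root of F. Log2 CPM used a prior count of 2. DESeq2 1.42.0, other scalings, no filter, a replicate block and leaving out libraries were alternatives, and leaving out all first replicates was chosen after seeing the data. In simulated data for D6 against D4, edgeR recovered 100% of 200 changed genes, with 4.31% of its calls false. DESeq2 recovered 100% with 13.8% of its calls false. The planted changes were large, with a median absolute log2 fold change of 1.975 as measured by edgeR. They were planted only in genes above a floor of counts, and the spread was set alike for all genes. The simulated counts held no replicate effect. They therefore do not show how often the test finds smaller changes, or changes in genes that vary with the replicate number.

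Symbols and positions came from GENCODE M21 (GRCm38) and promoters from RefSeq. The members and lists were chosen with earlier results of these data known. All members were named, with up to 4 genes per list (the highest counts and the largest changes from D4 to D6) and the 3 genes most like each member among those with a mean of at least 100 counts, of which 1 gene is not reported here. Genes named beyond these were the called members of a list. Libraries of one number deviated together, with every correlation over 0.1, for D4H8 with D5 and D6, for D5 with D6 (0.33, 0.16 and 0.25) and for D6 with D6+GSKJ4 (0.70, 0.35 and 0.49), but not for D4 with any stage or for GSKJ4 at D4H8 and D5. The pairing is read from the data, since the labels call the libraries biological replicates and name no shared culture, so p-values measure the spread between these libraries. No 2 libraries of a group agreed within sampling noise.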

Additional observations from a re-analysis of the deposited data

How the results depend on the processing

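Of the 160 recomputed values of the 8 member changes that passed the test, 155 kept direction and call and 5 lost the call, all of *Lin28a*. None of them changed sign. Of the recomputed values of members that did not pass, 55 came out stronger. Another 35 changed sign, over 20 of the 56 member changes, passed or not, and nearly all on leaving out a single library. The exception among the sign changes was *Pou5f1* with GSKJ4 at D4H8, at -0.053 on the log2 scale without the first replicates. The cause was not tested.

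Genes called from D4 to D4H8 numbered 767, and 1319 without the filter, 422 in one fit of all 21 libraries and 350 to 912 on leaving out a library (350 without D4H8 replicate 1 and 393 without D4 replicate 1). From D4H8 to D5, one fit gave 3218 beside 4861. For GSKJ4 at D4H8 the 644 calls became 1965 with DESeq2, 2287 without the filter, 2048 in one fit, 72 without the first replicates, and 43 to 1746 on leaving out a library: 43, 50 and 47 without untreated replicate 1, 2 or 3, and 1746 without treated replicate 2. At D5 the single call became 69 with DESeq2, 128 without the filter, 9 in one fit, 0 without the first replicates and 1 to 6 on leaving out a library. At D6 DESeq2 gave 1. For the difference of the GSKJ4 effect, D5 against D4H8 gave 351 without the filter, 101 without the first replicates and 16 to 172 on leaving out a library, beside 45. D6 against D4H8 gave 626 without the filter and 40 to 284 on leaving out a library, beside 133, and D6 against D5 gave 13 and 0 to 1, beside 0.

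Members called without the filter numbered 2 for D4 to D4H8, 4 for D4H8 to D5, 6 for D5 to D6, 7 for D4 to D6 and 2 for GSKJ4 at D4H8 (*Zfp42* and *Esrrb*). Calls over all genes also rose without the filter for D4 to D4H8 and for GSKJ4 at D4H8. The share of all genes called without the filter is not given here, so these member counts do not show whether the members stood out. Without the first replicates the members called numbered 0, 4, 5 and 7 for the stage contrasts in that order. Upper-quartile scaling gave 2 for D4H8 to D5, and one fit gave 1 (*Lin28a*) for GSKJ4 at D4H8. Leaving out a library gave 0 to 1 for D4 to D4H8, 1 to 2 for D4H8 to D5, 1 to 3 for D5 to D6 and 0 to 1 for GSKJ4 at D4H8.

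With the replicate block, 6 members were called from D5 to D6, where the numbers pair the libraries, and 257 genes for GSKJ4 at D6. From D4H8 to D5, also paired, the block called *Sall4* alone, as the fit without it did. Where the numbers do not pair the libraries, the block gave 2274 of 16269 genes for GSKJ4 at D4H8, beside 644 without it. Those genes included 4 members (*Nanog*, *Zfp42*, *Esrrb* and *Klf4*). The block also gave 4 genes for GSKJ4 at D5 and 6 members from D4 to D6. For the effect differences it gave 321 genes (D5 against D4H8) and 880 genes with 2 members (D6 against D4H8). The block without the first replicates called 2, 6, 8 and 7 members for the 4 stage contrasts. The check of pairing did not allow the block for D4 with any stage. The share of all genes called at that setting is not given here, so these member counts do not show whether the members stood out.

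On leaving out a library, changes from D4 to D4H8 ranged from -0.52 to 0.28 for *Pou5f1*, -0.75 to 0.065 for *Nanog*, -0.57 to 0.36 for *Esrrb*, -0.65 to 0.027 for *Klf4*, -0.26 to 0.040 for *Sall4* and -0.86 to 0.18 for *Utf1*. From D4H8 to D5 they ranged from -0.76 to 0.10 for *Zfp42*, -0.93 to 0.043 for *Esrrb*, -0.92 to 0.050 for *Dppa5a* and -0.75 to 0.34 for *Utf1*. From D5 to D6 they ranged from -0.089 to 0.82 for *Pou5f1*, -0.62 to 0.28 for *Nanog* and -0.085 to 0.80 for *Esrrb*. From D4 to D6 they ranged from -0.69 to 0.20 for *Pou5f1*, -0.67 to 0.24 for *Esrrb* and -0.051 to 0.50 for *Klf4*. With GSKJ4 they ranged at D4H8 from -0.25 to 0.53 for *Pou5f1* and -0.23 to 0.74 for *Dppa5a*, at D5 from -0.88 to 0.16 for *Utf1* and at D6 from -0.39 to 0.62 for *Dppa5a*.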
